A study of Mus musculus with 8 samples.

Results

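The 30 genes described here are markers and granule genes of neutrophils, taken by gene symbol from a table of 22155 genes in mouse liver. All 30 symbols were present in the table, and all 30 passed the low-count filter of the test. Liver RNA was sequenced in 8 libraries, which fall into 4 groups of 2. Yap1 floxed homozygotes that received an AAV8 virus with GFP form the Yap control group, and the hepatocyte-specific knockout made with an AAV8 virus carrying iCre forms the Yap1 knockout group. The Ctgf control group held Ctgf floxed homozygotes, for which no virus is named, and the Ctgf knockout group held Ctgf conditional knockouts, whose Cre driver the sources used here do not give. Every mouse was an adult of 8 to 10 weeks with a C57BL/6 background by its label. Controls and knockouts alike received the same injury: a Lieber-DeCarli liquid diet with 1% ethanol for 2 days and 2% ethanol for 10 days, then CCl4 (carbon tetrachloride, a hepatocyte toxin) at 1 µl per g into the peritoneum 2 days before the liver was taken. No group went without the injury, so the levels below are those of injured livers, and the labels do not say that the 2 libraries of a group came from separate animals.

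Neutrophils are short-lived white cells that leave the bone marrow through the blood and enter injured tissue. They load their granules in order as they mature: the azurophil granule proteins are made by promyelocytes in the marrow, the specific and gelatinase granule proteins by later stages, and the mature cell keeps transcripts of surface receptors, of calprotectin and of the machinery that produces oxidants. In an injured liver they clear dead cells and can also damage tissue. Hepatocytes do not make most of these transcripts, so in whole liver they report mostly on other cells. For some of the genes these include macrophages as well as neutrophils. A smaller number of such cells cannot be told apart from less RNA per cell.

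The libraries were checked first. Total counts ran from 26904021 to 33488609. A summed level of 10 hepatocyte genes between 46573 and 92051 CPM (counts scaled to a common library size by TMM) was that of liver in every library. Yap1 stood at 107 and 76.1 CPM in the Yap controls and at 31.0 and 32.5 in the Yap1 knockouts, a log2 fold change of -1.53 (SE 0.215, edgeR adjusted p = 0.0557). Of the Ctgf transcript the controls had 28.8 and 32.1 CPM and Ctgf knockout 1 had 8.02, but the library labelled Ctgf knockout 2 had 49.2, which goes against its label. Yap control 2 stands apart by its transcripts of the exocrine pancreas: 15 genes summed to 15150 CPM there and to between 3.13 and 8.23 CPM in the other 7 libraries. Counts of the 30 genes that passed are given with and without these 2 libraries.

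The stretches before the transcription start are shown for 6 genes on which the results turn: the calprotectin pair and the genes with the highest levels or largest differences below, and Mpo as the azurophil example. RefSeq's table of GRCm38.p6 holds a start region for 26 of the 30 genes. The stretch of S100a8 is chr3:90668821-90668977, plus strand, 157 bases. The stretch of S100a9 is chr3:90695722-90695971, minus strand, 250 bases. The stretch of Retnlg is chr16:48872358-48872607, plus strand, 250 bases. The stretch of Mmp8 is chr9:7558179-7558428, plus strand, 250 bases. The stretch of Ngp is chr9:110419558-110419746, plus strand, 189 bases. The stretch of Mpo is chr11:87793534-87793580, plus strand, 47 bases. Each reads 5′ to 3′ on the strand of its gene, and ends before the gene in both RefSeq and GENCODE. Capitals mark letters of the C/EBP type (TTNNGCAA) or of the PU.1 type (GAGGAA) on either strand. C/EBP factors and PU.1 are transcription factors of the granulocyte lineage.
S100a8: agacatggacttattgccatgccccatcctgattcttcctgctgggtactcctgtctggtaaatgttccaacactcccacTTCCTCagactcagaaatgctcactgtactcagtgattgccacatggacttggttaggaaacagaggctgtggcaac
S100a9: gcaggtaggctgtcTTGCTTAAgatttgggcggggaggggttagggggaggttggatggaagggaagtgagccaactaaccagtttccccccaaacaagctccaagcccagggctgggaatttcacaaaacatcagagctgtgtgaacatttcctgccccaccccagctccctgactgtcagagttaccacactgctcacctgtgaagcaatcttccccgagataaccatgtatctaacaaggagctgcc
Retnlg: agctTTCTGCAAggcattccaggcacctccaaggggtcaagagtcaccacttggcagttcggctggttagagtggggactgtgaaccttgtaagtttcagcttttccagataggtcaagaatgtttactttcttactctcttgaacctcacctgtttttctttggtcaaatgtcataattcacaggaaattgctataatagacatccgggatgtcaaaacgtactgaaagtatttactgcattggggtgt
Mmp8: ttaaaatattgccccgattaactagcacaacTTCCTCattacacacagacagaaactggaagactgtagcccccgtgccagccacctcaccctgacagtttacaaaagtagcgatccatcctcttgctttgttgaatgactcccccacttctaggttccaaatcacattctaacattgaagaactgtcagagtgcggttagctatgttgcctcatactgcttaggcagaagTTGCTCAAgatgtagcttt
Ngp: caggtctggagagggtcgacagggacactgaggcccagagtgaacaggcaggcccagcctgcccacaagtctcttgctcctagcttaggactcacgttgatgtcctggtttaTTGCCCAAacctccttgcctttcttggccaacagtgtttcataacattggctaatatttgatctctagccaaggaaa
Mpo: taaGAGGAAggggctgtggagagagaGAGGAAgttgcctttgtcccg

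Over the 250 bases before the start, TTNNGCAA was found in 7 of the 26 genes (26.9%), against 10.8% of 27025 genes in the RefSeq table. GAGGAA was found in 14 of the 26 (53.8%), against 25.9% of all genes. TATAAA, the TATA box letters, was found in 8 of the 26 (30.8%), against 14.3%. All motifs were searched on both strands, and overlaps between them were kept. All 4 azurophil genes held GAGGAA and none of them TTNNGCAA, while TTNNGCAA was found in S100a9, Retnlg, Mmp8, Ngp, Ltf, Ly6g and Clec4e. In Ngp it occurs at 138 bases before the RefSeq start and at 11, the latter past the end of the stretch printed, in Mmp8 at 19, in S100a9 at 236 and in Retnlg at 246. These are matches of letters, not sites shown to be bound.

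Summed over the 30 genes, the level was 503 and 626 CPM in the Yap controls, 1754 and 936 CPM in the Yap1 knockouts, 441 and 486 CPM in the Ctgf controls, and 175 and 368 CPM in the Ctgf knockouts. Both Yap1 knockouts lay above all 6 other libraries, and both Ctgf knockouts below all 6. As a share of all counts, Yap1 knockout 1 had 0.172% (95% Wilson interval 0.170% to 0.173%) and Yap1 knockout 2 had 0.0896% (0.0885% to 0.0907%). The library with the lowest share, Ctgf knockout 1, had 0.0173% (0.0168% to 0.0178%). These intervals cover counting error only, and with 2 libraries against 2 an exact permutation test cannot go below p = 0.333. S100a8 and S100a9 together made up 11.7% to 31.1% of the members' counts, and without them the sums were 445 and 452 CPM in the Yap controls against 1208 and 665 CPM in the Yap1 knockouts. The same order held in the other line without them, at 332 and 361 CPM in the Ctgf controls against 131 and 284 CPM in the Ctgf knockouts.

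**Figure D1:**
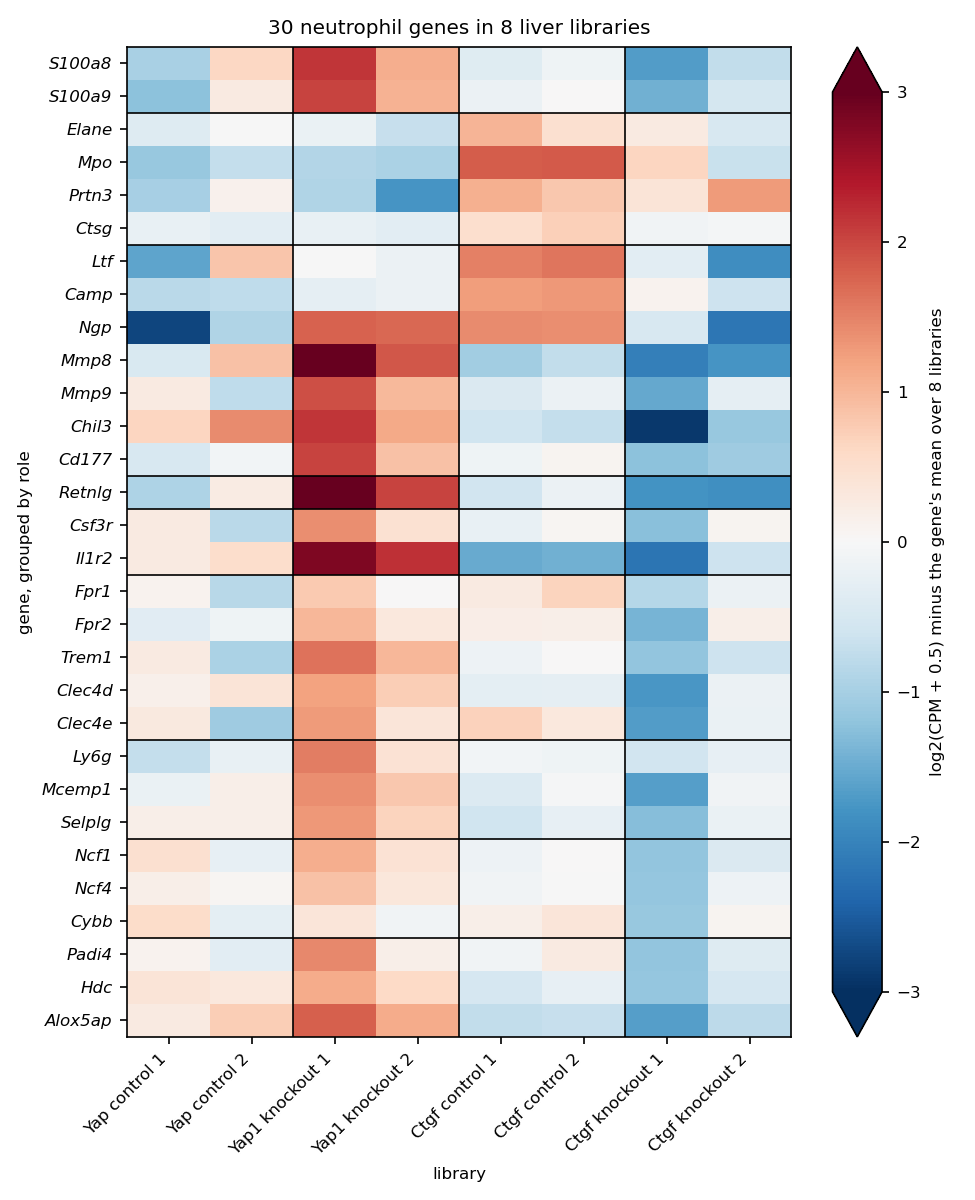
Each row is one of the 30 genes, ordered by role with lines between roles, and each column one of the 8 libraries. Colour is log2(CPM + 0.5) minus the gene's mean over the 8 libraries, with values beyond 3 in either direction shown at the ends of the scale. Yap1 knockout 1 was the highest library for 23 of the 30 genes and Ctgf knockout 1 the lowest for 21. The 4 azurophil genes (Elane, Mpo, Prtn3, Ctsg) and also Camp and Ltf follow other patterns.

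The level within a group was not even. Yap1 knockout 1 was above Yap1 knockout 2 for 29 of the 30 genes, with a median of 1.65-fold, and Camp was the exception. The library labelled Ctgf knockout 2 was above Ctgf knockout 1 for 24 of 30, with a median of 1.90-fold. The Ctgf controls were the closest pair, with a median of 1.14-fold. The Yap controls differed in both directions: 12 genes were higher in library 1 and 18 in library 2. The ratio was most uneven for Ngp, at 1 count in Yap control 1 and 34 in Yap control 2.

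In the Yap line, no gene passed an adjusted p of 0.05 in edgeR's quasi-likelihood F test over the 13999 genes tested, where 0.0214% of all genes passed as higher and 0.00714% as lower. The estimate was above 0 for 26 of the 30 genes, among them Ctsg with under 3 counts in each Yap library, and below 0 for 4. The median log2 fold change of the 30 genes was 1.07 against -0.0046 over all genes. At an unadjusted p under 0.05, 12 were higher and 0 lower, where 6.64% and 7.14% of all genes were. For 21 genes both Yap1 knockouts lay above both Yap controls, and for 0 genes below, against 23.6% and 20.8% of all genes. DESeq2's Wald test on the same counts passed 8 of them as higher (S100a8, S100a9, Mmp8, Mmp9, Cd177, Retnlg, Il1r2 and Trem1), where it passed 1.94% of all genes as higher and 1.74% as lower. Without both Yap control 2 and the library labelled Ctgf knockout 2, edgeR passed 7 as higher (S100a8, S100a9, Ltf, Ngp, Mmp8, Retnlg and Il1r2), where 3.72% of all genes passed as higher and 2.86% as lower. Without Yap control 1 it passed 3 as higher (Mmp9, Retnlg and Trem1), but 12.4% of all genes then passed as higher and 13.4% as lower, so this count is near the share of all genes. Without Yap1 knockout 1 it passed 0, and the median was 0.60. At an unadjusted p under 0.05, 6 genes were then higher and 1 lower, where 3.47% and 3.25% of all genes were.

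The estimates pointed the other way in the Ctgf line. Of the 30 genes, 0 passed the adjusted threshold in edgeR, where 0% of all genes passed in either direction, and DESeq2 passed 0 as well. The estimate was below 0 for 29 genes and above 0 for Il1r2 alone, and the median log2 fold change was -0.87 against 0.01 over all genes. At an unadjusted p under 0.05, 7 were lower and 0 higher: Ltf, Camp, Ngp, Cd177, Retnlg, Mpo and Ctsg. Over all genes, 1.32% were lower and 0.657% higher by that rule. Camp, Mpo and Ctsg passed the low-count filter through the Ctgf groups, the same groups that are compared here. That count of 7 was 2 without Ctgf control 2 (0.4% of all genes), 3 without Ctgf control 1 (0.715%) and 14 without the library labelled Ctgf knockout 2 (3.18%). Without Ctgf knockout 1, 5 were lower and 1 higher by that rule, where 2.83% and 2.35% of all genes were, and 8 of the 30 estimates lay above 0. Both Ctgf knockouts lay below both controls for 21 genes and above them for 0, where 16.8% and 15.5% of all genes did so. Among the 21 are Camp, Mpo, Ctsg and Elane, which all passed the low-count filter through the Ctgf groups. The median was -0.46 without Ctgf knockout 1 and -1.43 without the library labelled Ctgf knockout 2, in which Ctgf was not lowered. Without the latter library the log2 fold change was -2.35 for Clec4e, -1.43 for Cybb and -0.82 for Il1r2, further down than in the fit of all libraries. It was -2.17 for Ltf, -2.10 for Ngp, -1.50 for Mpo and -0.80 for Elane, nearer to 0 than in the fit of all libraries.

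**Figure D2:**
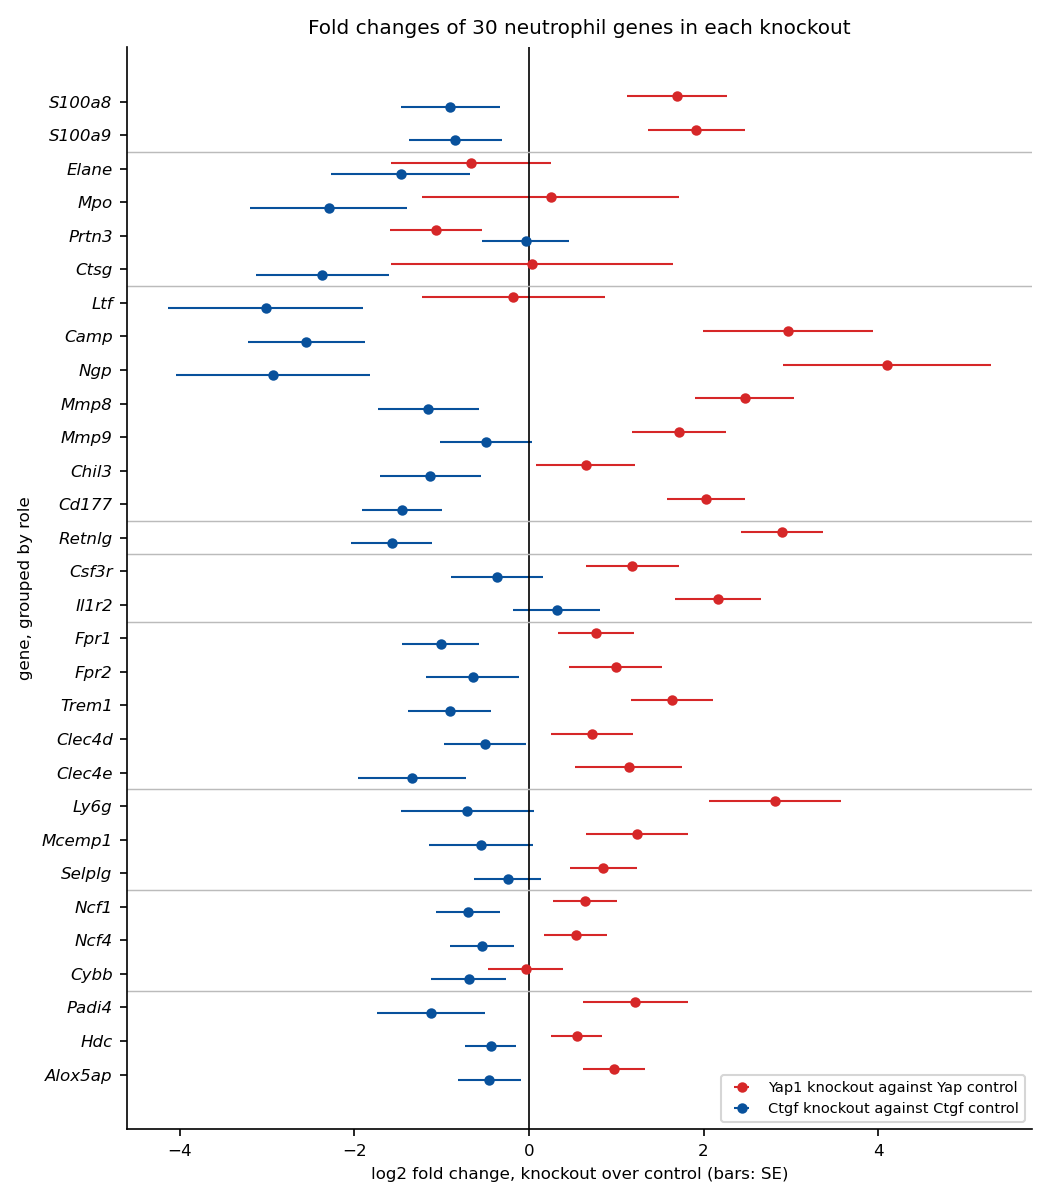
Points are log2 fold changes (knockout over control) of the 30 genes and bars their standard errors, in red for Yap1 and in blue for Ctgf, with n = 2 libraries in each group. For the Yap line 26 of the red points lie above 0, and for the Ctgf line 29 of the blue points lie below 0; Ctsg, Mpo, Ngp, Ltf, Camp and Elane have the widest red bars. Ctsg had under 3 counts in each Yap library, so its red point is no measured fold.

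The difference between these effects was tested as an interaction. In edgeR 0 of the 30 genes passed, as 0% of all genes did in each direction, and 17 were higher at an unadjusted p under 0.05 with 0 lower, where 4.68% and 4.19% of all genes were. That count of 17 was 7 without Yap1 knockout 1 (2.46% of all genes), 10 without Ctgf control 2 (1.88%), 10 without Ctgf knockout 1 (5.84%) and 25 without the library labelled Ctgf knockout 2 (5.08%). DESeq2 passed 6 genes as higher for this difference (S100a9, Camp, Mmp8, Cd177, Retnlg and Trem1), where it passed 0.607% of all genes as higher. Of these 6, Camp passed the low-count filter through the Ctgf groups. Without both libraries that stand apart edgeR passed 6 as higher (S100a9, Ltf, Ngp, Retnlg, Il1r2 and Clec4d), where 0.75% of all genes passed. Without Yap control 1 it passed 5 (Ngp, Mmp8, Cd177, Retnlg and Trem1), where 7.84% of all genes passed as higher. The median of the difference was 2.03. For 13 genes both Yap1 knockouts lay above both of their controls while both Ctgf knockouts lay below both of theirs, which 5.01% of all genes did. Camp, which entered through the Ctgf groups, is among the 13.

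S100a8 and S100a9 encode the subunits of calprotectin, the calcium-binding and metal-binding protein that is the most plentiful protein of the neutrophil cytosol. The genes lie near each other at chr3:90668978-90670035 and chr3:90692632-90695721 (GRCm38). S100a8 stood at 27.4 and 83.6 CPM in the Yap controls, 243 and 116 in the Yap1 knockouts, 42.3 and 49.1 in the Ctgf controls and 16.7 and 32.2 in the Ctgf knockouts. S100a9 stood at 31.4 and 89.9, 304 and 155, 66.0 and 75.7, and 27.3 and 51.9 CPM in the same order. For both genes the groups of each line did not overlap, although the Yap controls were in ratio a more unequal pair than the Yap1 knockouts. The log2 fold change of S100a9 was 1.92 (SE 0.550, edgeR adjusted p = 0.227) in the Yap line and -0.84 (SE 0.537, edgeR adjusted p = 1) in the Ctgf line. That of S100a8 was 1.69 (SE 0.574, edgeR adjusted p = 0.280) and -0.90 (SE 0.566, edgeR adjusted p = 1). Without Yap control 2 the Yap line had 2.87 for S100a9 (edgeR adjusted p = 0.113) and 2.72 for S100a8 (edgeR adjusted p = 0.135). Per kb of exon S100a9 was the highest of the 30 genes in every group and S100a8 the second highest. In the Yap1 knockouts the levels were 439 ± 202 CPM per kb (SD, n = 2) for S100a9 and 259 ± 129 CPM per kb (SD, n = 2) for S100a8. These SDs are between libraries and take no account that both genes were measured in the same ones. Within each library S100a9 was 1.43 to 2.18 times S100a8 per kb, lowest in Yap control 2 and highest in Ctgf knockout 1. In the 4 libraries of the Yap line this ratio was at most 1.77, and in the 4 of the Ctgf line at least 2.05.

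Retnlg, a secreted resistin-like protein of mouse neutrophils, had the smallest p of the 30 genes in the Yap line. It stood at 7.69 and 17.7 CPM in the Yap controls and at 126 and 63.1 in the Yap1 knockouts. It stood at 9.95 and 13.2 in the Ctgf controls and at 3.94 and 3.85 in the Ctgf knockouts. The lower Yap1 knockout was above every control, and the Ctgf knockouts are nearly equal, below theirs. The log2 fold change was 2.90 (SE 0.469) in the Yap line, with an edgeR adjusted p of 0.0910. Retnlg passed in 4 of 18 alternatives, among them DESeq2 with an adjusted p of 1.39e-07. Over the alternatives the log2 fold change ran from 2.32 to 3.62, the latter without Yap control 2. The log2 fold change of Retnlg was -1.57 (SE 0.461, edgeR adjusted p = 1) in the Ctgf line, and the difference was 4.47 (SE 0.655, edgeR adjusted p = 0.271). In level per kb Retnlg had rank 3 of 30 in the Yap1 knockouts, at 160 ± 75.4 CPM per kb (SD, n = 2), rank 4 in both control groups and rank 7 in the Ctgf knockouts.

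**Figure D3:**
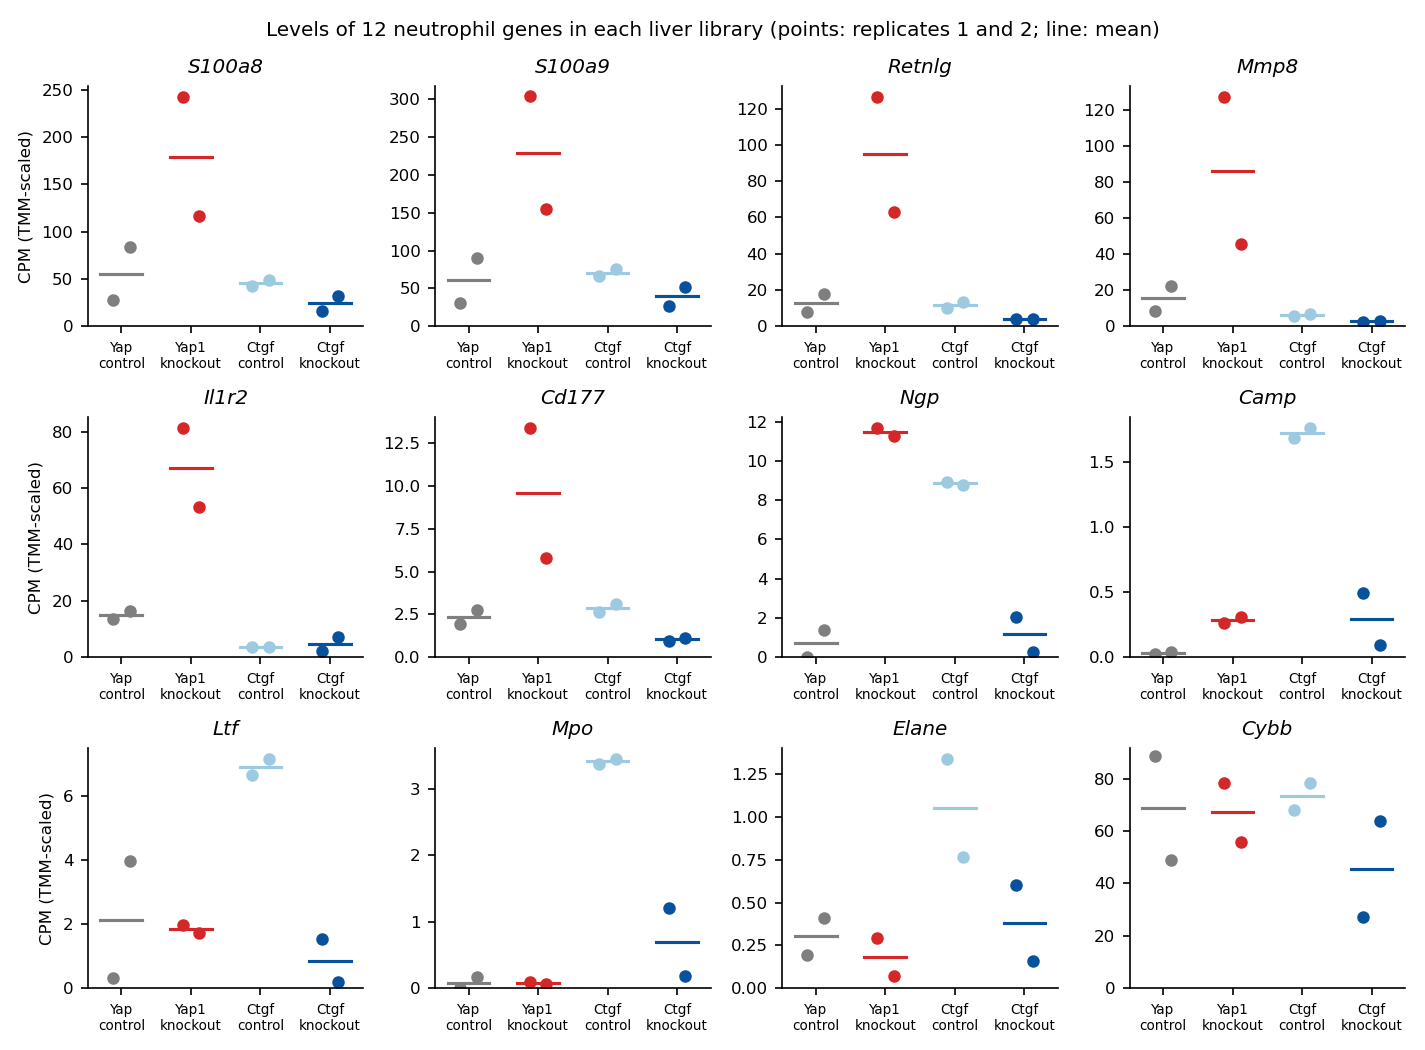
Each panel gives the level of one gene in CPM on its own linear axis from 0, with a point for each of the 2 libraries of a group and a line at their mean. S100a8, S100a9, Retnlg, Mmp8, Il1r2 and Cd177 are highest in the Yap1 knockouts, Camp, Ltf, Mpo and Elane in the Ctgf controls, and Ngp is high in both; Cybb overlaps between the Yap groups.

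The 7 genes of the specific and gelatinase granules did not all follow the same pattern over the groups. Mmp8 (neutrophil collagenase) stood at 8.66 and 22.6 CPM in the Yap controls, 127 and 45.5 in the Yap1 knockouts, 5.61 and 7.05 in the Ctgf controls, and 2.52 and 3.18 in the Ctgf knockouts. Its log2 fold change was 2.47 (SE 0.571, edgeR adjusted p = 0.159) in the Yap line, 3.32 there without Yap control 2 (edgeR adjusted p = 0.113), and -1.15 (SE 0.579, edgeR adjusted p = 1) in the Ctgf line. Cd177, a surface protein stored in specific granules, stood at 1.96 and 2.76, 13.4 and 5.78, 2.65 and 3.13, and 0.958 and 1.14 CPM. The groups of both lines do not overlap for either gene. The log2 fold change of Cd177 was 2.03 (SE 0.446, edgeR adjusted p = 0.153) in the Yap line. Mmp9 (gelatinase B) stood at 22.5 and 10.7 CPM in the Yap controls and 72.9 and 36.7 in the Yap1 knockouts, a log2 fold change of 1.72 (SE 0.536, edgeR adjusted p = 0.250), and its Ctgf groups overlapped. Chil3, a chitinase-like protein that macrophages also make, overlapped in the Yap line, at 92.3 and 158 against 263 and 130 CPM, and lay at 38.8 and 35.9 against 7.52 and 26.5 CPM in the Ctgf line. Its near copy Chil4 had 0 to 2 counts per library, so few reads were assigned to the copy.

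Ngp, Camp and Ltf are secondary granule genes that maturing cells transcribe in the marrow. Ngp (neutrophilic granule protein) stood at 0.0277 and 1.40 CPM in the Yap controls and at 11.7 and 11.3 in the Yap1 knockouts. The Ctgf controls had 8.93 and 8.79 CPM and the Ctgf knockouts 2.06 and 0.286. Its Yap1 knockouts are nearly equal, while its Yap controls are the most unequal pair among the 28 of the 30 genes with counts in both libraries. The log2 fold change was 4.10 (SE 1.19, edgeR adjusted p = 0.231) in the Yap line and -2.93 (SE 1.11, edgeR adjusted p = 1) in the Ctgf line. The Yap estimate was 8.50 without Yap control 2, where it rests on 1 control count. Camp, the precursor of the cathelicidin peptide, had 1 and 1 counts in the Yap controls, 8 and 9 in the Yap1 knockouts, 53 and 62 in the Ctgf controls, and 14 and 3 in the Ctgf knockouts. The ratio of Yap1 knockout to Yap control was 8.73 with an exact 95% interval of 2.07 to 77.9 for counting error, and the log2 fold change was 2.96 (SE 0.974, edgeR adjusted p = 0.271). Ltf (lactoferrin) stood at 0.332 and 3.95 CPM in the Yap controls and at 1.97 and 1.73 in the Yap1 knockouts, so the knockouts lay between the controls. Its log2 fold change was -0.18 (SE 1.05, edgeR adjusted p = 0.940), and 2.47 without Yap control 2. The Ctgf libraries had Ltf at 6.63 and 7.14 against 1.53 and 0.191 CPM, a log2 fold change of -3.01 (SE 1.11, edgeR adjusted p = 1).

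The azurophil genes encode the proteases neutrophil elastase (Elane), proteinase 3 (Prtn3) and cathepsin G (Ctsg) and the heme enzyme myeloperoxidase (Mpo), all products of immature cells. Elane, Mpo and Ctsg were at low counts in the Yap line, while Prtn3 had 52 to 583 counts per library. The Yap groups overlapped for all 4. Mpo had 0 and 4 counts in the Yap controls, 3 and 2 in the Yap1 knockouts, 106 and 121 in the Ctgf controls, and 34 and 6 in the Ctgf knockouts. Elane had 7 and 10, 9 and 2, 42 and 27, and 17 and 5 counts in the same order. Ctsg had 1 and 0, 1 and 0, 12 and 18, and 2 and 3 counts. It was thus under the floor of 3 counts in all 4 libraries of the Yap line, and its estimates there are no measured folds. For all 3 genes the Ctgf controls lie above the 6 other libraries. Mpo, Elane and Ctsg, like Camp, passed the low-count filter through the Ctgf groups. Prtn3 stood at 3.46 and 8.11, 3.69 and 1.80, 15.8 and 13.3, and 9.79 and 18.5 CPM, and its Ctgf knockouts span its controls. Without strand its reads cannot be told apart from those of Plppr3, which overlaps it on the opposite strand and had 13 to 26 counts, against 52 to 583 for Prtn3. In the Yap line the log2 fold change was -0.66 for Elane (SE 0.917, edgeR adjusted p = 0.736), 0.25 for Mpo (SE 1.47, edgeR adjusted p = 0.942) and -1.06 for Prtn3 (SE 0.523, edgeR adjusted p = 0.403). Mpo had in the Ctgf line -2.29 (SE 0.899, edgeR adjusted p = 1) and Elane -1.47 (SE 0.791, edgeR adjusted p = 1). Summed over the 4 genes the level was 3.68 and 8.68 CPM in the Yap controls, 4.11 and 1.94 in the Yap1 knockouts, 20.9 and 18.0 in the Ctgf controls, and 11.7 and 19.0 in the Ctgf knockouts. Prtn3 is most of that sum.

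Across the 8 libraries the azurophil genes, and also Camp and Ltf, differed from the other 24 in their profile. Pearson's r between a gene's log2 CPM and the mean of the 30 genes, which include it, was -0.50 for Prtn3, -0.19 for Mpo, -0.15 for Elane and -0.02 for Ctsg. It was 0.08 for Camp and 0.32 for Ltf, and between 0.59 (Cybb) and 0.98 (Cd177) for the other 24. This is a description of 8 libraries in 4 groups, in which the low-count genes carry the most counting error. Prtn3, at 52 to 583 counts per library, is not one of those.

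Among the cytokine receptors, Il1r2 is the decoy receptor for interleukin 1 and Csf3r the receptor for granulocyte colony-stimulating factor, which drives neutrophil production. Il1r2 stood at 13.6 and 16.4 CPM in the Yap controls, 81.2 and 53.3 in the Yap1 knockouts, 3.60 and 3.81 in the Ctgf controls, and 2.09 and 7.12 in the Ctgf knockouts. Both Yap1 knockouts were above every other library, and its Ctgf knockouts lay on either side of their controls. The log2 fold change was 2.17 (SE 0.495, edgeR adjusted p = 0.157) in the Yap line and 0.32 (SE 0.50, edgeR adjusted p = 1) in the Ctgf line. Csf3r stood at 40.5 and 18.8 against 88.8 and 46.1 CPM in the Yap line, with a log2 fold change of 1.18 (SE 0.532, edgeR adjusted p = 0.377), and its Ctgf groups overlapped.

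The 5 chemoattractant and pattern receptors had estimates between 0.72 and 1.64 in the Yap line and between -1.33 and -0.50 in the Ctgf line. Fpr1 and Fpr2 are receptors for formyl peptides, Trem1 amplifies inflammatory signals, and Clec4d and Clec4e are lectins that bind microbial lipids, the latter also sensing a protein released by dead cells. Trem1 stood at 7.0 and 2.72 CPM in the Yap controls and 18.6 and 11.8 in the Yap1 knockouts, a log2 fold change of 1.64 (SE 0.472, edgeR adjusted p = 0.229). It stood at 5.04 and 5.74 against 2.23 and 3.5 CPM in the Ctgf line, where its groups do not overlap either. Clec4e stood at 16.3 and 6.09 against 32.5 and 17.1 CPM in the Yap line, a bare separation, and at 21.7 and 16.6 against 3.76 and 11.4 in the Ctgf line, with a log2 fold change of -1.33 (SE 0.619, edgeR adjusted p = 1). Fpr1 was the one of the 5 whose Yap groups overlapped, at 9.54 and 4.73 against 15.6 and 8.86 CPM. Fpr2 shares exonic sequence with Fpr3 in the annotation, and Fpr3 had 0 counts in every library.

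Ly6g, the antigen by which mouse neutrophils are usually stained, was a rare transcript. It had 4 and 9 counts in the Yap controls, 73 and 25 in the Yap1 knockouts, 14 and 15 in the Ctgf controls, and 5 and 11 in the Ctgf knockouts. Its Yap1 knockouts were the highest of the 8 libraries, with a log2 fold change of 2.82 (SE 0.756, edgeR adjusted p = 0.204), and of 3.84 without Yap control 2 (edgeR adjusted p = 0.175). Mcemp1, a membrane protein of myeloid cells, and Selplg, the P-selectin ligand that lets leukocytes roll on endothelium, had 1.24 (SE 0.587, edgeR adjusted p = 0.395) and 0.85 (SE 0.385, edgeR adjusted p = 0.379). For both genes the Yap groups do not overlap and the Ctgf groups do.

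The NADPH oxidase makes the oxidative burst, and macrophages use it too. Cybb, its catalytic subunit, stood at 88.6 and 48.9 CPM in the Yap controls and 78.2 and 56.0 in the Yap1 knockouts, which lay between them. Its log2 fold change was -0.04 (SE 0.427, edgeR adjusted p = 0.973). The cytosolic subunits Ncf1 and Ncf4 had 0.64 (SE 0.365, edgeR adjusted p = 0.445) and 0.53 (SE 0.363, edgeR adjusted p = 0.509). The Ctgf knockouts of all 3 lay below both controls, with Cybb at 68.1 and 78.2 against 27.2 and 63.7 CPM and a log2 fold change of -0.69 (SE 0.429, edgeR adjusted p = 1). Ncf1 overlaps Gtf2ird2 on the opposite strand, which had 186 to 613 counts against 297 to 1592, so part of its count is uncertain.

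The last 3 genes are enzymes: Padi4 citrullinates histones in the release of extracellular traps, Hdc makes histamine, and Alox5ap is the partner of 5-lipoxygenase in leukotriene synthesis. Alox5ap stood at 22.6 and 31.6 CPM in the Yap controls, 65.9 and 40.9 in the Yap1 knockouts, 11 and 11.4 in the Ctgf controls, and 5.68 and 10.6 in the Ctgf knockouts. Its log2 fold change was 0.98 (SE 0.355, edgeR adjusted p = 0.307) in the Yap line. Padi4 stood at 2.05 and 1.40 against 5.92 and 2.15 CPM in the Yap line, where one knockout lay just above the higher control, and its log2 fold change was 1.22 (SE 0.598, edgeR adjusted p = 0.403). Hdc, which basophils and mast cells also express, had a log2 fold change of 0.55 (SE 0.292, edgeR adjusted p = 0.427). Of 8 mast cell and basophil genes, Mcpt4, Tpsb2 and Fcer1a had under 3 counts in every library, and the only one that passed the low-count filter was Gata2.

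The controls of the lines were compared with each other as a description. These groups differ in line, virus and library numbers at once, which cannot be told apart, and they are the same libraries that enter the comparisons above. Camp was the only 1 of the 30 genes to pass, lower in the Yap controls by a log2 fold change of -5.53 (SE 0.883, edgeR adjusted p = 0.0332), where 1.27% of all genes passed as higher and 1.11% as lower. DESeq2 gave Camp an adjusted p of 0.000561. Camp, Mpo, Elane and Ctsg passed the low-count filter through the Ctgf groups, so they entered this test by a group that is compared here. Camp had 115 counts in the Ctgf controls against 2 in the Yap controls, a ratio of 52.6 with an exact 95% interval of 14.2 to 440 for counting error. Camp did not pass without Yap1 knockout 1 (edgeR adjusted p = 0.111), Yap1 knockout 2 (0.113), Ctgf control 1 (0.295) or Ctgf control 2 (0.294), nor in a fit of these 4 libraries alone (0.0852). DESeq2 passed 3 as higher and 2 as lower, where 5.84% and 5.07% of all genes passed. Without Yap control 1 edgeR passed 3 in each direction, where 13.4% and 12.2% of all genes passed, and without both libraries that stand apart 3 as higher and 6 as lower, where 13.8% and 14.6% did. Mpo had -5.52 (SE 1.17, edgeR adjusted p = 0.0552), with 227 counts against 4, a ratio of 51.9 (exact 95% interval 20.0 to 192). Ctsg had 30 counts against 1, a ratio of 27.5 (exact 95% interval 4.56 to 1120), and an edgeR adjusted p of 0.0588. All 4 azurophil genes lay lower in both Yap controls than in both Ctgf controls. At an unadjusted p under 0.05, Mmp8, Chil3, Il1r2, Hdc and Alox5ap were higher in the Yap controls and Mpo, Prtn3, Ctsg, Camp and Ngp lower, which is 5 in each direction where 12.2% and 10.4% of all genes were. Non-overlap in 8 genes as higher and 11 as lower is to be read against 26.1% and 27% of all genes. By upper quartile scaling the median of all genes in this comparison moves from 0.04 to 0.18, and 15 of the 30 genes then lie above 0 in place of 13.

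Genes that bring neutrophils into tissue were followed as a list of 22, of which 19 were tested. In the Yap line 12 were above 0 with a median of 0.64, and 0 passed in edgeR. At an unadjusted p under 0.05, 7 were higher and 1 lower, where 6.64% and 7.14% of all genes were. The 3 with the smallest p were Ppbp, a platelet-derived precursor of neutrophil-attracting chemokines, and the chemokine receptors Cxcr1 and Cxcr2. Ppbp stood at 5.59 and 2.18 CPM in the Yap controls and 22.4 and 19.3 in the Yap1 knockouts, a log2 fold change of 2.41 (SE 0.441, edgeR adjusted p = 0.112). Cxcr2 stood at 12.2 and 8.40 against 51.6 and 28.7 CPM, a log2 fold change of 1.96 (SE 0.475, edgeR adjusted p = 0.178). Cxcr1 had a log2 fold change of 3.07 (SE 0.673, edgeR adjusted p = 0.153) at levels of at most 1.18 CPM. Both Yap1 knockouts were above every other library for these 3 genes. For the Ctgf knockouts 4 of the 19 were above 0 and 15 below, with a median of -0.86. At an unadjusted p under 0.05, 5 of the 19 were lower there, where 1.32% of all genes were. The cytokine genes Csf2 and Il17a had under 3 counts in every library.

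A second list held 30 further genes of neutrophils, of which 26 were tested. In the Yap line 22 were above 0, with a median of 1.00, and 0 passed in edgeR. At an unadjusted p under 0.05, 9 of the 26 were higher and 0 lower, where 6.64% and 7.14% of all genes were. The 3 with the smallest p were the integrin gene Itgb2l at 4.20 (SE 0.727, edgeR adjusted p = 0.0959), the transcriptional repressor Mxd1 at 1.43 (SE 0.342, edgeR adjusted p = 0.172) and Cxcr2, which is in both lists. For the Ctgf knockouts 22 of the 26 were below 0, with a median of -0.39. The summed level of that list is no measure of neutrophils in liver, because hepatocytes also express Hp, Lcn2 and Lrg1, and Hp alone stood between 6401 and 20621 CPM. Of 7 tested transcription factors of granulocytes, 3 were above 0 in the Yap line. The 3 with the smallest p were Runx1 at 1.30 (edgeR adjusted p = 0.153), Cebpa, which hepatocytes also use, at -0.96 (edgeR adjusted p = 0.173), and Cebpe at -1.56 (edgeR adjusted p = 0.343). Spi1, which encodes PU.1, had -0.14 and Cebpd 0.18.

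Markers of other cells moved with the groups in part. All 6 platelet and megakaryocyte genes were above 0 in the Yap line, with a median of 1.77, and their sum was 30.8 to 32.0 CPM in the Yap controls and 77.0 to 81.5 CPM in the Yap1 knockouts. The platelet sum was 8.89 to 9.61 CPM in the controls and 6.61 to 8.51 CPM in the knockouts of the Ctgf line. Of 9 erythroid genes 8 were above 0 in the Yap line, with a median of 1.23, and their sum was 124 to 231 CPM against 405 to 470 CPM; in the Ctgf line 5 of 9 were above 0, and the sums overlapped. Neutrophils, platelets and red cells all travel in blood, and the part of blood content in the result was not tested. The 11 Kupffer cell genes, those of resident macrophages, were all below 0 in both lines, with a median of -0.39 in the Yap line and -0.70 in the Ctgf line. Their sum was 978 to 1290 CPM in the Yap controls, 866 to 989 CPM in the Yap1 knockouts, 733 to 1145 CPM in the Ctgf controls and 445 to 783 CPM in the Ctgf knockouts. The 15 monocyte and macrophage genes had 7 above 0 in the Yap line and 4 in the Ctgf line, with medians of -0.21 and -0.44, and their sums were 2638 to 3955 CPM, 3875 to 4817 CPM, 1496 to 1557 CPM and 1435 to 1595 CPM in the same order of groups. Arg1 (arginase 1, which hepatocytes also express) was 32.5% to 72.1% of that sum, and without it the Yap controls had 1340 and 2668 CPM and the Yap1 knockouts 1469 and 1343 CPM. Of 11 tested T and NK cell genes 1 was above 0 in the Yap line and 3 in the Ctgf line. The 12 genes summed to 3.19 and 2.21 CPM in the Yap1 knockouts, below the 3.37 to 6.87 CPM of all other libraries. The 8 B and plasma cell genes had 5 above 0 in the Yap line and 1 in the Ctgf line. Sdc1 was 93.5% to 99.5% of their sum, and without it the other 7 summed to 4.87 and 4.45 CPM in the Yap controls, 5.10 and 3.11 in the Yap1 knockouts, and 8.83 to 17.3 in the Ctgf line, where both controls were above both knockouts. Of 7 eosinophil genes Epx, Ear1 and Ear6 had under 3 counts in every library. The part of each of these cell types in the neutrophil result was not tested.

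**Figure D4:**
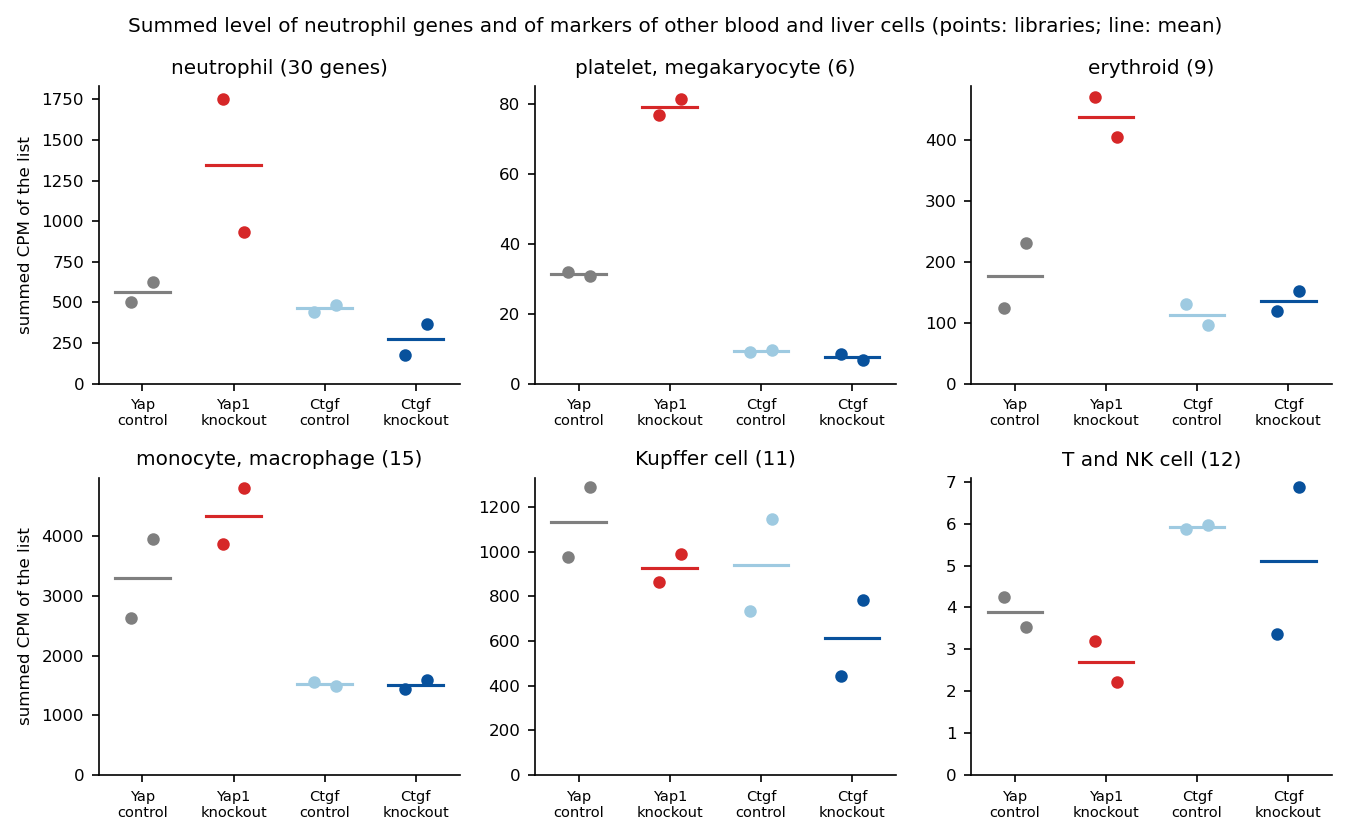
Each panel gives the summed CPM of a list of marker genes on its own linear axis from 0, with a point for each library and a line at the mean of its group. The neutrophil, platelet and erythroid sums of both Yap1 knockouts lie above those of all other libraries. Their T and NK cell sums lie below those of all other libraries, and their Kupffer cell and monocyte sums overlap with other libraries. The neutrophil and platelet sums of both Ctgf knockouts lie below both Ctgf controls.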

How the data were processed

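The deposited file is a table of raw read counts by gene symbol and library (8 columns, 0 left unused). Per the labels' protocols, RNA was extracted from frozen liver with Trizol, and a TruSeq and a KAPA mRNA HyperPrep kit are named without saying which library had which. The tools named in the submitters' processing notes are HTSeq 0.6.1, STAR 2.6.0a and bcl2fastq 2.20.0.422, with the builds mm10 and GRCm38. The sources used here give neither the annotation nor the strand setting, so counts of genes that overlap on opposite strands are uncertain.

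The 30 genes and all other gene lists were chosen with earlier results of these data known. Of the other lists, up to 3 genes with the smallest p in the Yap line are named, with defining markers of other cells; other genes were named after their values were seen. The result of 1 further list is not reported here. Counts were tested with edgeR 4.0.16 (R 4.3.3), quasi-likelihood F test, TMM scaling and edgeR's low-count filter, which left 13999 of 22155 genes. The 4 groups shared 1 fit (4 residual degrees of freedom; biological coefficient of variation 27.2%), which assumes that they vary alike. P-values were adjusted by Benjamini-Hochberg over all genes tested, with a threshold of 0.05. They measure the spread between libraries, which may be technical. CPM were computed from the deposited counts with TMM-scaled library sizes, and a count of 3 corresponds to 0.0829 to 0.121 CPM. CPM per kb divides by the union of a gene's exons in GENCODE vM21. The test was tried on simulated counts. Alternatives were DESeq2 1.42.0, limma-voom (limma 3.58.1), other scaling, other filters, a fit of the compared libraries only, a replicate block, a robust spread and leaving out libraries. Replicates of a group differed by far more than counting noise, so none was counted as a duplicate.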

Additional observations from a re-analysis of the deposited data

How the results depend on the processing

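In the Yap line the count of the 30 genes that passed was 0 in the reported fit, 8 in DESeq2, 1 without the low-count filter (Retnlg) and 7 without both Yap control 2 and the library labelled Ctgf knockout 2; leaving out single libraries gave 0 to 3. It was 0 by limma-voom. Without the low-count filter 0.136% of all genes passed as higher in the Yap line and 0.0738% as lower. The median log2 fold change was 0.60 to 1.42 when single libraries were left out. In the Ctgf line no alternative passed any of the 30 genes; the median was -1.43 to -0.46 over single libraries left out and -1.43 without both. For the difference between the effects, DESeq2 passed 6, the fit without both libraries 6, and single libraries left out 0 to 5; the median was 1.44 to 2.86, and 2.91 without both. Between the controls of the lines, 1 gene passed in the reported fit and 0 in the fit of those libraries only. DESeq2 passed 5, where 5.84% of all genes passed as higher and 5.07% as lower. By limma-voom 3 passed, where 1.17% and 1.22% did, and without the filter 2, where 1.15% and 1.06% did. Counts without Yap control 1 and without both are given above beside the share of all genes. The median of -0.12 ran from -0.27 to 0.043 over single libraries left out. The sign of the estimate turned in at least 1 alternative for 5 of the 30 genes in the Yap line, 8 in the Ctgf line, 2 in the difference and 9 between the controls. In the Yap line Ctsg had -0.00144 by upper quartile scaling and -0.60 without both. Ctsg had under 3 counts in each Yap library, so these values and its range below are model estimates and no measured folds. Its turn of sign there carries no weight. Ltf had 0.86 by limma-voom and 2.47 without both or without Yap control 2, and Cybb 0.0038 by limma-voom. Over single libraries left out, Elane ran from -2.03 to 0.0056, Mpo ran from -0.96 to 4.48, Ctsg ran from -2.31 to 2.33, Ltf ran from -1.12 to 2.47 and Cybb ran from -0.40 to 0.43 in the Yap line. Over single libraries left out, Prtn3 ran from -0.57 to 0.37 and Il1r2 ran from -0.82 to 0.96 in the Ctgf line. Over single libraries left out, Elane ran from -0.56 to 1.98 in the difference. Over single libraries left out, S100a8 ran from -0.75 to 0.89 and S100a9 ran from -1.18 to 0.37 between the controls. In the Ctgf line the others that turned were Clec4d (up to 0.12), Csf3r (0.17), Fpr2 (0.0098), Mcemp1 (0.14), Mmp9 (0.043) and Selplg (0.23); Il1r2 had -0.82 without both. In the difference Prtn3 had 0.24 without both, and between the controls S100a8 had -0.75 without both. The labels do not say that a replicate number marks a shared animal, litter, batch or day (r of the deviations of same-numbered libraries 0.154 in the Yap line, 0.103 in the Ctgf line and -0.148 between the controls). With the replicate number as a block, 0, 0, 0 and 1 of the 30 genes passed in the 4 comparisons, and 1 with the numbers crossed between the controls, a pairing added after seeing the data. Between the controls 0.779% of all genes passed as higher and 0.786% as lower with the block. With the numbers crossed these shares were 0.85% and 0.864%. The cause of these shifts was not tested. Where 1 library was left in a group, it was assumed to vary like the others. Ctsg, Mpo, Elane and Camp, with at most 10 counts in each Yap library, are limited by depth there.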

Other observations

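Among 12011 genes of at least 1 CPM on average outside the lists, the log2 CPM of Nfe2, a transcription factor of megakaryocytes, red cell precursors and granulocytes, had the highest Pearson correlation with the mean of the 30 genes over the 8 libraries (r = 0.97). The 9 that followed, down to r = 0.92, were Cd200, Mapk4, Lilr4b, Zc3h12a, Bmx, Igsf6, Sirpb1b, Stx11 and Map3k8. Nfe2 stood at 2.21 and 2.14 CPM in the Yap controls, 7.80 and 3.53 in the Yap1 knockouts, 1.82 and 2.42 in the Ctgf controls, and 0.461 and 1.49 in the Ctgf knockouts. These correlations describe 8 libraries in 4 groups, from which the genes were picked for their fit, and none of the 10 passed in either line.

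Among hepatocyte genes, 4 of 10 were above 0 in the Yap line and 8 of 10 in the Ctgf line. Tat, which breaks down tyrosine, stood at 465 and 862 CPM in the Yap controls and 1696 and 2296 in the Yap1 knockouts, a log2 fold change of 1.59 (SE 0.346, edgeR adjusted p = 0.153). Ctgf itself, a matrix-associated secreted protein, stood at 96.8 and 50.1 CPM in the Yap controls and 406 and 324 in the Yap1 knockouts, a log2 fold change of 2.31 (SE 0.718, edgeR adjusted p = 0.250). Of the macrophage genes, Arg1 stood at 1299 and 1286 against 2406 and 3474 CPM in the Yap line.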
